A study of Mus musculus with 6 samples.

Results

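The genes described here encode the proteins of the cytosolic ribosome (symbols Rpl, Rps and Rplp with a number) and of the mitochondrial ribosome (symbols Mrpl and Mrps with a number). They were chosen by symbol among the genes that an array probe set names alone, leaving out the S6 kinase genes, pseudogenes and antisense transcripts. Of 12393 genes named in this way, 121 were members, 47 of the Rpl/Rps class and 74 of the Mrpl/Mrps class. Where a gene had several probe sets, the one with the highest mean level over the 6 arrays stood for it. The Rpl/Rps class is not complete on this basis, since only 41 of 77 listed core proteins of the cytosolic ribosome had a probe set of their own, and Rpl5 and Rplp1 were among those without.

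Total RNA of 6 lines of mouse embryo fibroblasts, primary cells taken from embryos and grown for 2 passages, was hybridised to 1 Affymetrix array per line. The unstable group held 2 BubR1 H/H lines and 1 CDC20 AAA/AAA line. The BubR1 H/H lines have wild-type CDC20 and a hypomorphic allele of BubR1, a kinase of the spindle checkpoint. The CDC20 AAA/AAA line has a mutant allele of the mitotic activator CDC20 and wild-type BubR1. The stable group held 2 BubR1 +/+ lines and 1 CDC20 +/+ line, wild type at both loci. Each unstable line carried the same number in its title as 1 stable line: the numbers 9515 and 9938 marked the BubR1 pairs and 10074 the CDC20 pair, so the CDC20 genotypes had 1 line each. All lines had the same treatment, and the labels give neither the age nor the sex of the embryos, nor whether the lines came from separate embryos. P-values therefore measure only the spread between these lines.

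The deposited values had been brought to a common distribution, and array medians lay at 6.16 to 6.20 on the log2 scale with 64.2% to 64.7% of probe sets at 4 or more. Bub1b, which encodes BubR1, measured 6.14 against 7.81 (unstable against stable line), 6.43 against 8.51 and 7.00 against 7.61 in pairs 9515, 9938 and 10074. Cdc20 measured 10.74 against 10.85, 10.34 against 11.15 and 10.03 against 10.83. Both genes were thus lower in the unstable line of every pair, Bub1b most in the BubR1 pairs. None of 11 fibroblast markers tested was below 4 in all lines, and their mean level was 11.39 to 11.87 in stable and 11.60 to 11.74 in unstable lines.

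The cytosolic ribosome translates the messenger RNAs made in the nucleus: its small subunit reads the code and its large subunit joins the amino acids. The mitochondrial ribosome translates the few messenger RNAs of mitochondrial DNA, which encode parts of the respiratory chain, and all of its proteins are encoded in the nucleus and imported. In fibroblasts, as in other growing cells, messenger RNAs of cytosolic ribosomal proteins are among the most abundant, and many of them begin with a run of pyrimidines through which mTOR signalling controls their translation.

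The classes differed in how often a run of pyrimidines stood at the annotated transcription start. Start sites were taken from RefSeq on the build GRCm38.p6, in windows of 300 bases (250 before the start and 50 from it), which matched 39 of the 45 Rpl/Rps and 65 of the 74 Mrpl/Mrps genes with a measurable level and 6838 of all 8382 such genes. A C at the annotated start, followed without a break by pyrimidines up to at least base 5, was found in 8 Rpl/Rps genes (20.5%), in 0 Mrpl/Mrps genes and in 3.11% of all genes. A start annotated a few bases off would hide such a run, so these shares count annotated starts only. The 8 genes are shown to let the runs be compared, each from 10 bases before the start to base 15, with the run in capitals.
Rpl14 (chr9:120571507-120571531, plus strand): ggccctctctCTTCTCgctgagcgc
Rpl35 (chr2:39005117-39005141, minus strand): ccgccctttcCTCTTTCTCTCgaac
Rpl38 (chr11:114668570-114668594, plus strand): aagcctcgttCTTTCCCCgttctct
Rplp2 (chr7:141447641-141447665, plus strand): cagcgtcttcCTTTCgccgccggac
Rps10 (chr17:27635230-27635254, minus strand): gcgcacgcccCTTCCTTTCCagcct
Rps18 (chr17:33955651-33955675, minus strand): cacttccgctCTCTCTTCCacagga
Rps27 (chr3:90213634-90213658, minus strand): cgctttcgctCCTTTCCggcggtga
Rps6 (chr4:86857353-86857377, minus strand): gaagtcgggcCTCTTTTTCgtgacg
The run was 5 bases long in Rplp2, the shortest, and 11 in Rpl35, the longest.

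Short motifs were searched on both strands of the 300 bases. The palindrome that TCTCG forms with its reverse complement, 10 bases that read the same on both strands, was found in 5 Rpl/Rps promoters (12.8%; Rpl10a, Rpl12, Rps19, Rps28 and Rps6), in the Mrpl/Mrps promoter of Mrpl57 (1.54%) and in 1.27% of all promoters. CCGGAAG, the core of sites bound by ETS-family factors, was found in 19 Rpl/Rps promoters (48.7%), in 24 Mrpl/Mrps promoters (36.9%) and in 21.3% of all. AAGATGGCG, a YY1-type motif, was found in 3 Rpl/Rps promoters (7.69%), in 7 Mrpl/Mrps promoters (10.8%) and in 3.8% of all. The palindrome that GCGCA forms with its reverse complement, an NRF1-type motif, was found in 2 (5.13%), in 3 (4.62%) and in 2.44%. The TATAAA box was found in 12.8%, 7.69% and 8.85%, and the CCAAT box in 28.2%, 38.5% and 43.1%. A match describes the letters in the window and is not a measured binding site. The windows below show the motif, in capitals, in members whose values are described later.
Rpl12 (chr2:32961652-32961692, plus strand): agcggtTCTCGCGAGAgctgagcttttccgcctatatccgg
Mrpl57 (chr14:57826189-57826228, plus strand): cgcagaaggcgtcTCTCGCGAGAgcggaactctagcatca
Rps25 (chr9:44407634-44407673, plus strand): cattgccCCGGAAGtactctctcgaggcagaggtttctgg
Mrps22 (chr9:98601680-98601709, minus strand): tgcacaaaaacctctcgagCCGGAAGttgc
Mrps12 (chr7:28741808-28741836, minus strand): tcactaaggaggaaccCCGGAAGgggctg
The motif began 54 bases before the start in Rpl12 and 37 bases before it in Mrpl57.

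Rpl/Rps probe sets were among the brightest on the arrays, and Mrpl/Mrps probe sets lay nearer to the middle. The median over Rpl/Rps members of the mean log2 level was 12.55 (quartiles 11.81 and 13.06), against 9.73 (quartiles 8.65 and 10.45) for Mrpl/Mrps members and 8.85 for all 8382 genes tested. A level of at least 12 was reached by 33 of 45 Rpl/Rps members and by 1 of 74 Mrpl/Mrps members, Mrpl52. Probe sets differ in how well they bind, so these are levels of signal and not numbers of molecules. Within the Rpl/Rps class the means ran from 4.28 for Rpl37 to 13.53 for Rps20, and Rps27 lay at 4.82 to 5.22 and Rpl12 at 8.59 to 9.22 over the lines, although each of these proteins is present in 1 copy per ribosome. Within the Mrpl/Mrps class they ran from 5.48 for Mrps5 to 12.39 for Mrpl52. Rpl39, at 3.07 to 3.30, and the muscle paralog Rpl3l, at 2.21 to 2.45, lay below 4 in every line and were not tested, and the other 45 Rpl/Rps and 74 Mrpl/Mrps members passed 4 in all 6 lines.

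**Figure D1:**
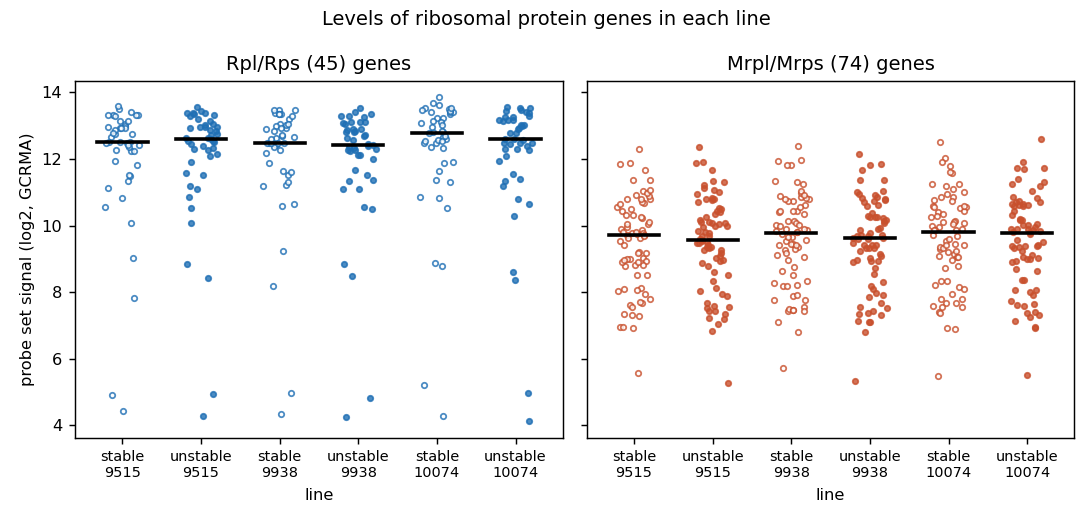
Log2 probe set level (GCRMA) of each Rpl/Rps gene (left, 45 genes) and each Mrpl/Mrps gene (right, 74 genes) in each line; open points are stable and filled points unstable lines, and bars are medians over genes. The Rpl/Rps medians lie between 12.42 and 12.78 and the Mrpl/Mrps medians between 9.57 and 9.79, with Rpl37 and Rps27 far below the other Rpl/Rps genes.

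The classes kept their distance in every line, and differences between lines were small beside it. In the unstable and the stable line, the Rpl/Rps median was 12.60 and 12.50 in pair 9515, 12.42 and 12.49 in pair 9938, and 12.59 and 12.78 in pair 10074. The Mrpl/Mrps median was 9.57 and 9.70, 9.61 and 9.78, and 9.78 and 9.79 in the same order. For Rpl/Rps genes the stable CDC20 line stood highest, whereas the Mrpl/Mrps genes did not single it out. When each gene's level was set against its own mean over the stable lines, the stable line of pair 10074 lay at a median of 0.157 for Rpl/Rps genes, and those of pairs 9515 and 9938 at -0.072 and -0.055. The unstable lines of pairs 9515, 9938 and 10074 lay at -0.057, -0.145 and 0.012 for Rpl/Rps genes. By this measure both lines of pair 10074 thus stood above the lines of the other pairs. The stable line of pair 10074 was the highest stable line for 35 of 45 Rpl/Rps genes, against 37.3% of all genes. For Mrpl/Mrps genes the stable lines of pairs 9515, 9938 and 10074 lay at -0.086, 0.062 and 0.038, and the highest was the line of pair 9938 for 36 of 74 genes (29.7% of all genes) and that of pair 10074 for 30. The medians over all genes lay within -0.017 and 0.016 in all 6 lines. These values describe 6 lines and carry no test, since members share their line.

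**Figure D2:**
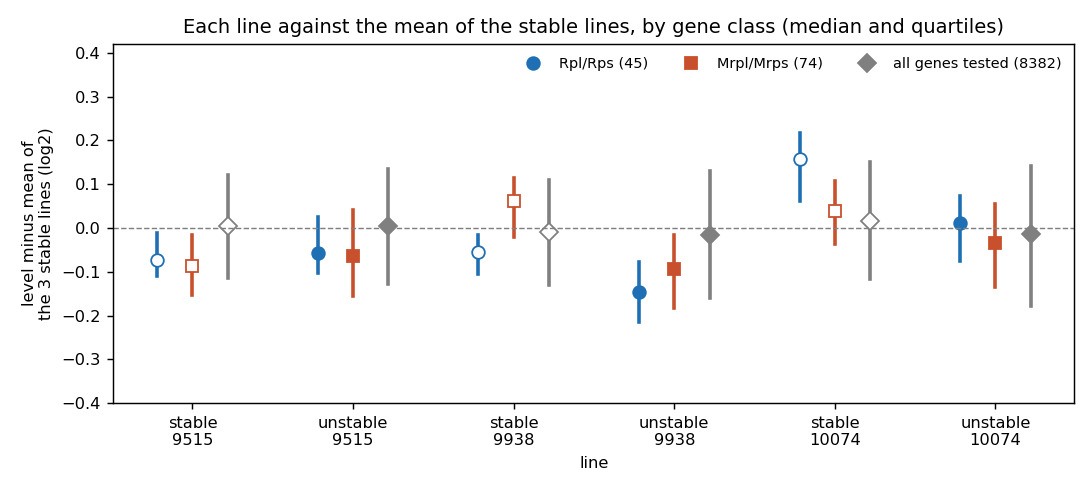
Log2 level of each gene minus its mean over the 3 stable lines, as the median (marker) and quartiles (bar) over Rpl/Rps genes, Mrpl/Mrps genes and all genes tested, for each line; open markers are stable and filled markers unstable lines. The Rpl/Rps median is highest in the stable line of pair 10074 (0.157) and lowest in the unstable line of pair 9938 (-0.145), while the median of all genes stays near 0.

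The study's main question was how transcript levels differ between chromosomally unstable and stable lines. In both classes most members were slightly lower in unstable lines, and none passed the test. Over group means, 38 of 45 Rpl/Rps members (84.4%) and 57 of 74 Mrpl/Mrps members (77%) were lower, against 52.1% of all genes. The median difference was -0.078 for Rpl/Rps, -0.057 for Mrpl/Mrps and -0.009 for all genes on the log2 scale. The size was small: the differences ran from -0.28 to 0.16 in the Rpl/Rps class and from -0.24 to 0.38 in the Mrpl/Mrps class. By limma over all 8382 genes, 0 Rpl/Rps and 0 Mrpl/Mrps members passed an adjusted p of 0.05 (0% of all genes in each direction), the smallest adjusted p was 0.999, and 0 members had an unadjusted p under 0.05, against 2.93% of all genes lower and 1.35% higher. With the pair number fitted as a block 0 members passed as well, the smallest adjusted p by limma was 0.344 for Rpl/Rps and 0.443 for Mrpl/Mrps, and 1 member, Rpl12, had an unadjusted p under 0.05 (6.92% of all genes lower, 5.24% higher).

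The excess of lower members was seen in pairs 9938 and 10074 and not in pair 9515. In pair 9515, 17 of 45 Rpl/Rps members (37.8%) and 34 of 74 Mrpl/Mrps members (45.9%) were lower in the unstable line, against 49.5% of all genes, and the medians were 0.021 and 0.017. In pair 9938, 36 (80%) and 61 (82.4%) were lower, against 50.4% of all genes, with medians of -0.091 and -0.140. In pair 10074, 42 (93.3%) and 48 (64.9%) were lower, against 54.5% of all genes, with medians of -0.119 and -0.059. The order of the classes thus changed between pairs: the Mrpl/Mrps median minus the Rpl/Rps median was -0.005 in pair 9515, -0.049 in pair 9938 and 0.059 in pair 10074, and 0.021 over group means. Other bright genes, 456 with a mean level of at least 12, had 53.1%, 56.6% and 47.4% lower in the same pairs, and 3684 other genes with means from 8 up to 11, the range of most Mrpl/Mrps genes, had 48.5%, 50.6% and 53.3%. The Rpl/Rps median was -0.001 without the stable line of pair 10074 and -0.107 without pair 9515. For the Mrpl/Mrps median the lowest and highest values with a line or pair left out were -0.109, without pair 9515, and -0.024, without pair 9938.

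**Figure D3:**
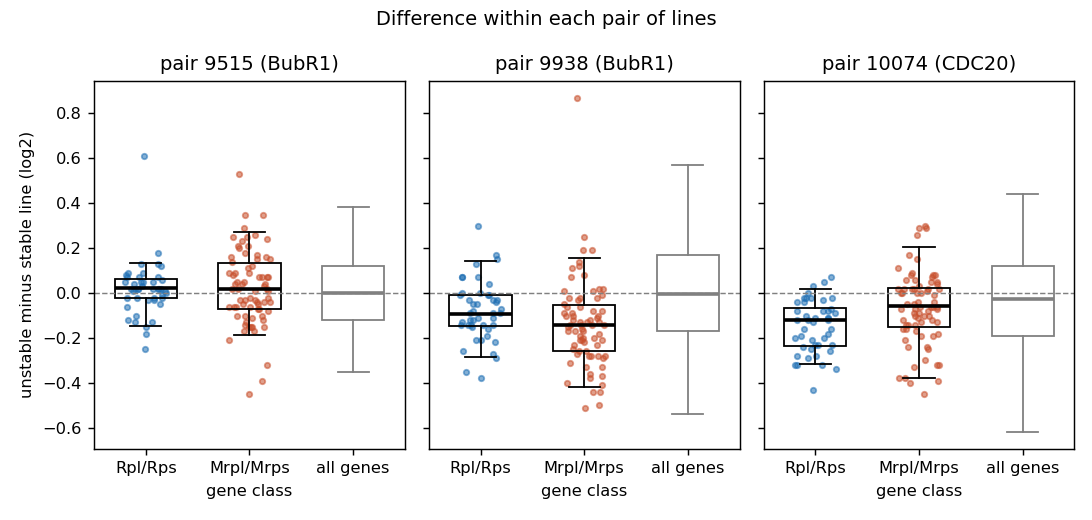
Log2 difference, unstable minus stable line, of each Rpl/Rps gene (blue points), each Mrpl/Mrps gene (red points) and, as a box only, all 8382 genes, in each pair; boxes are quartiles with the median, and whiskers reach the 5th and 95th percentiles. The Rpl/Rps median is 0.021, -0.091 and -0.119 and the Mrpl/Mrps median 0.017, -0.140 and -0.059 in pairs 9515, 9938 and 10074.

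Agreement of all pairs was not common. Of Rpl/Rps members 13 of 45 and of Mrpl/Mrps members 19 of 74 were lower in the unstable line of every pair, against 19.3% of all genes. The Rpl/Rps count was 21 with arrays centred on their median and 10 after quantile normalization, and the Mrpl/Mrps count 21 and 19. Only Rps14 and Rps26, and Mrpl24, Mrpl36, Mrps12 and Mrps34, were higher in every pair, against 16.9% of all genes. The groups did not overlap, with every unstable line below every stable line, for 2 Rpl/Rps members, Rpl12 and Rps25, and for 8 Mrpl/Mrps members (6.41% of all genes). The 8 were Mrpl12, Mrpl15, Mrpl37, Mrpl46, Mrpl49, Mrpl57, Mrps22 and Mrps35, and 0 members of either class lay above without overlap (3.54% of all genes). Genes in this paragraph that do not recur in the text were picked out after their values were seen.

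Of large subunit genes 19 of 21 were lower over group means, with a median of -0.087, and 10, 18 and 21 of 21 were lower in pairs 9515, 9938 and 10074. Of small subunit genes 15 of 19 were lower (median -0.048), and 4, 16 and 16 of 19 were lower in the same pairs. In pair 9515 large subunit genes were thus about evenly divided and most small subunit genes were higher, and the difference between subunits was not tested.

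Rpl12, a protein of the base of the stalk that recruits elongation factors, had the largest difference of its class. It measured 8.84, 8.83 and 8.59 in the unstable and 9.01, 9.22 and 8.87 in the stable lines of pairs 9515, 9938 and 10074. Every unstable line lay below every stable line, although the unstable line of pair 9515, at 8.84, was only just below the stable line of pair 10074, at 8.87. The means were 8.75 ± 0.14 (SD, n = 3) and 9.03 ± 0.18 (SD, n = 3). The difference of -0.28 (SE 0.13) is 1.21-fold lower, with limma's adjusted p = 0.999, or adjusted p = 0.344 with the pair as a block. Without the stable line of pair 9938 the difference was -0.19. Rpl12 is 1 of the 5 Rpl/Rps genes with the TCTCG palindrome, in the window printed above, and it had only 1 probe set. The others with the palindrome differed less: Rpl10a by 0.00, Rps19 by -0.11, Rps28 by -0.04 and Rps6 by -0.04.

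The other stalk genes differed less. Rplp2, an acidic stalk protein, measured 12.16, 12.11 and 12.46 in unstable and 12.28, 12.37 and 12.57 in stable lines, lower in every pair but with overlapping groups, and its difference was -0.17 (SE 0.14). Leaving out 1 line of pair 10074 gave -0.083 (the stable line) or -0.275 (the unstable line), and leaving out the unstable line of pair 9938 gave -0.100. Rplp0, the protein on which the stalk is built and a common reference gene, measured 12.92, 12.80 and 13.03 in unstable and 12.86, 12.84 and 13.09 in stable lines. Its difference was -0.01 (SE 0.11), higher in pair 9515 and lower in the other 2 pairs. Neither passed the test (adjusted p = 0.999 by limma).

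Rpl4 and Rpl35, proteins at the tunnel through which the new chain leaves, were lower in every pair. Rpl4 measured 13.28, 13.11 and 13.37 in unstable and 13.33, 13.34 and 13.63 in stable lines, with a difference of -0.18 (SE 0.13). Rpl35, whose start site is printed above, measured 13.37, 13.29 and 13.54 against 13.50, 13.48 and 13.85, with a difference of -0.21 (SE 0.14). In both genes the groups overlapped, the stable line of pair 10074 was the highest of all lines, and the difference without it was -0.08 for Rpl4 and -0.09 for Rpl35. For Rpl4 it was -0.11 without the unstable line of pair 9938. Rpl35 had 6 probe sets, whose differences ran from -0.26 to 0.04. The second brightest measured 13.56, 13.40 and 13.53 in unstable and 13.31, 13.53 and 13.53 in stable lines, so Rpl35 has no direction that all its probe sets share.

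Rpl11, which with Rpl5 also binds the p53 regulator Mdm2 outside the ribosome, measured 13.33, 13.10 and 13.42 in unstable and 13.31, 13.37 and 13.53 in stable lines. Its difference was -0.12 (SE 0.12), and only the unstable line of pair 9938 lay outside the range of the stable lines. The difference was -0.029 without that line, -0.055 without the stable and -0.185 without the unstable line of pair 10074. Rpl37, close to the limit of 4, measured 4.29, 4.24 and 4.12 against 4.42, 4.33 and 4.28, lower in every pair with slight overlap and a difference of -0.13 (SE 0.09), which was -0.079 without the unstable line of pair 10074. Rpl41, the shortest ribosomal protein, measured 12.08, 12.01 and 12.31 against 11.95, 11.88 and 12.32, with a difference of 0.08 (SE 0.16). It was higher in both BubR1 pairs, but its other 3 probe sets had differences of -0.25, -0.06 and 0.02.

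In the small subunit, Rps25 was the gene whose groups did not overlap. Rps25, a protein of the subunit head that some viral RNAs need for translation, measured 11.18, 11.11 and 11.20 in unstable and 11.33, 11.32 and 11.31 in stable lines. The stable lines lay close together and all unstable lines lay below them, with means of 11.16 ± 0.05 (SD, n = 3) and 11.32 ± 0.01 (SD, n = 3). The difference was -0.16 (SE 0.08), with limma's adjusted p = 0.999. Its promoter window with CCGGAAG is printed above, and it had 1 probe set. The 19 Rpl/Rps genes with CCGGAAG had a median difference of -0.117 and the 20 without it -0.078, but the medians within pairs were 0.007, -0.090 and -0.117 with it against 0.032, -0.110 and -0.167 without, so the order turned in pairs 9938 and 10074. The 8 genes with a start-site run of pyrimidines had -0.067 against -0.081 for the 31 without, and within pairs -0.005, -0.124 and -0.065 against 0.027, -0.090 and -0.177. Neither split kept 1 order over the pairs.

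Rps6, the substrate of the S6 kinases, and Rps19, the gene most often mutated in Diamond-Blackfan anaemia, showed no common direction over pairs. Rps6 measured 11.53, 11.51 and 11.34 in unstable and 11.51, 11.63 and 11.37 in stable lines, a difference of -0.04 (SE 0.11). Rps19 measured 12.60, 12.39 and 12.79 against 12.48, 12.68 and 12.95, a difference of -0.11 (SE 0.16) that was 0.01 without the stable line of pair 10074. Rps14, which lies at the platform of the subunit, was higher in every pair, at 12.96, 13.09 and 12.90 against 12.94, 12.91 and 12.83, with a difference of 0.09 (SE 0.09) that was 0.039 without the unstable line of pair 9938. Its only other probe set gave -0.08, so its direction depends on the probe set. None of the 3 genes passed the test (adjusted p = 0.999 by limma).

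Paralogs of core proteins behaved individually. Rps4l, an expressed copy related to Rps4x, had the widest pair differences of the class: it measured 8.43, 8.48 and 8.35 in unstable and 7.81, 8.17 and 8.77 in stable lines. The unstable lines were alike and the stable lines spread from 7.81 to 8.77, so that the pair differences were 0.61, 0.30 and -0.43. Rpl39l, which is best known from the testis, measured 10.08, 11.33 and 11.40 in unstable and 10.09, 11.18 and 11.63 in stable lines. It thus separated pair 9515 from the other pairs by over 1 log2 unit but not the groups, with a difference of -0.03 (SE 0.52). Rpl22l1 measured 12.64, 12.56 and 12.08 against 12.66, 12.49 and 12.36, a difference of -0.08 (SE 0.18). Rps27l, a p53 target, measured 12.55, 12.37 and 12.48 against 12.48, 12.49 and 12.48, a difference of -0.02 (SE 0.09). Rpl7l1 was lower in every pair, at 10.54, 10.51 and 10.30 against 10.57, 10.65 and 10.53, with a difference of -0.14 (SE 0.10) that was -0.062 without the unstable line of pair 10074. All 5 had an adjusted p of 0.999 by limma. Messenger RNAs of ribosomal proteins have many processed pseudogenes and some near-identical paralogs, so a probe set may read more than the gene it names.

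Among mitochondrial large subunit genes, 38 of 47 were lower over group means, with a median of -0.072, and 22, 39 and 33 of 47 were lower in pairs 9515, 9938 and 10074. Mrpl12, the counterpart of the bacterial stalk protein, measured 9.53, 9.48 and 9.32 in unstable and 9.74, 9.57 and 9.70 in stable lines. All unstable lines lay below all stable lines, with means of 9.45 ± 0.11 (SD, n = 3) and 9.67 ± 0.09 (SD, n = 3). The difference was -0.22 (SE 0.10), with limma's adjusted p = 0.999. Mrpl46, at 7.23, 7.12 and 7.12 against 7.28, 7.56 and 7.37, also had no overlap, and its difference of -0.24 (SE 0.11) ranked first of all members by limma's p without the block (adjusted p = 0.999). Mrpl12 and Mrpl46 had 1 probe set each.

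Mrpl15 and Mrpl57 differed by at least 0.13 in the same direction in every pair. Mrpl15 measured 10.17, 10.30 and 10.21 in unstable and 10.32, 10.43 and 10.40 in stable lines, pair differences of -0.15, -0.13 and -0.19. Mrpl57, the Mrpl/Mrps gene with the TCTCG palindrome in the promoter window printed above, measured 7.42, 7.30 and 7.38 against 7.55, 7.44 and 7.55, pair differences of -0.13, -0.14 and -0.17. In both genes the lowest stable line lay above the highest unstable line, and by limma the group differences were -0.16 (SE 0.09) and -0.15 (SE 0.09), with an adjusted p of 0.999 each. The second probe set of Mrpl57 did not share this: its pair differences were -0.04, -0.28 and 0.25 and its mean difference -0.02, against -0.186 for the second probe set of Mrpl15. Mrpl28 measured 8.12, 7.92 and 7.91 against 8.11, 8.28 and 8.20, a difference of -0.22 (SE 0.10) with 0.01 in pair 9515. By its second probe set, with pair differences of 0.10, -0.05 and -0.07, it was -0.005, and by the mean of its probe sets -0.095. That mean takes in another probe set at a mean level of 2.82, below the limit of 4. Mrpl24 went the other way, at 11.02, 11.01 and 11.20 against 10.81, 10.82 and 11.20, a difference of 0.14 (SE 0.14) that was present in the BubR1 pairs and just above 0 in the CDC20 pair. With 1 line left out it ran from 0.068, without the stable line of pair 9515, to 0.262, without the stable line of pair 10074.

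Among mitochondrial small subunit genes, 19 of 27 were lower over group means, with a median of -0.047, and 12, 22 and 15 of 27 were lower in pairs 9515, 9938 and 10074. Mrps22, mutated in a severe mitochondrial disease of infants, measured 9.01, 8.89 and 8.98 in unstable and 9.16, 9.40 and 9.04 in stable lines, without overlap. Its difference was -0.24 (SE 0.12), was largest in pair 9938 (-0.51) and was -0.137 without the stable line of that pair. Its promoter window with CCGGAAG is printed above. Mrps25 was lower in every pair, at 9.68, 9.68 and 9.91 against 9.79, 10.01 and 10.04, a difference of -0.19 (SE 0.12) that was -0.425 by its second probe set. Mrps5 measured 5.27, 5.32 and 5.52 against 5.58, 5.73 and 5.47, a difference of -0.23 (SE 0.12) seen in the BubR1 pairs, and its second probe set gave -0.039. By limma each of these had an adjusted p of 0.999.

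Mrps12 and Mrps23 had the highest differences of the class, and each rested on particular lines. Mrps12, a protein of the decoding site, measured 9.16, 9.08 and 9.88 in unstable and 8.93, 8.21 and 9.86 in stable lines. The stable line of pair 9938 stood alone at 8.21, and the difference of 0.38 (SE 0.44) was -0.02 without it. Mrps12 also separated the CDC20 pair, at 9.86 and 9.88, from the BubR1 lines, at 8.21 to 9.16, and its annotated start holds CCGGAAG from base 2, as printed above. Mrps23 measured 9.48, 9.41 and 9.39 in unstable and 8.95, 9.64 and 9.21 in stable lines, so the unstable lines were alike and the stable lines spread. Its difference of 0.16 (SE 0.18) was -0.07 by its second probe set and -0.002 without the stable line of pair 9515, and neither gene passed the test (adjusted p = 0.999 by limma). The 24 Mrpl/Mrps genes with CCGGAAG had a median difference of -0.036 and the 41 without it -0.071, with pair medians of 0.109, -0.161 and -0.062 against -0.020, -0.167 and -0.056.

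**Figure D4:**
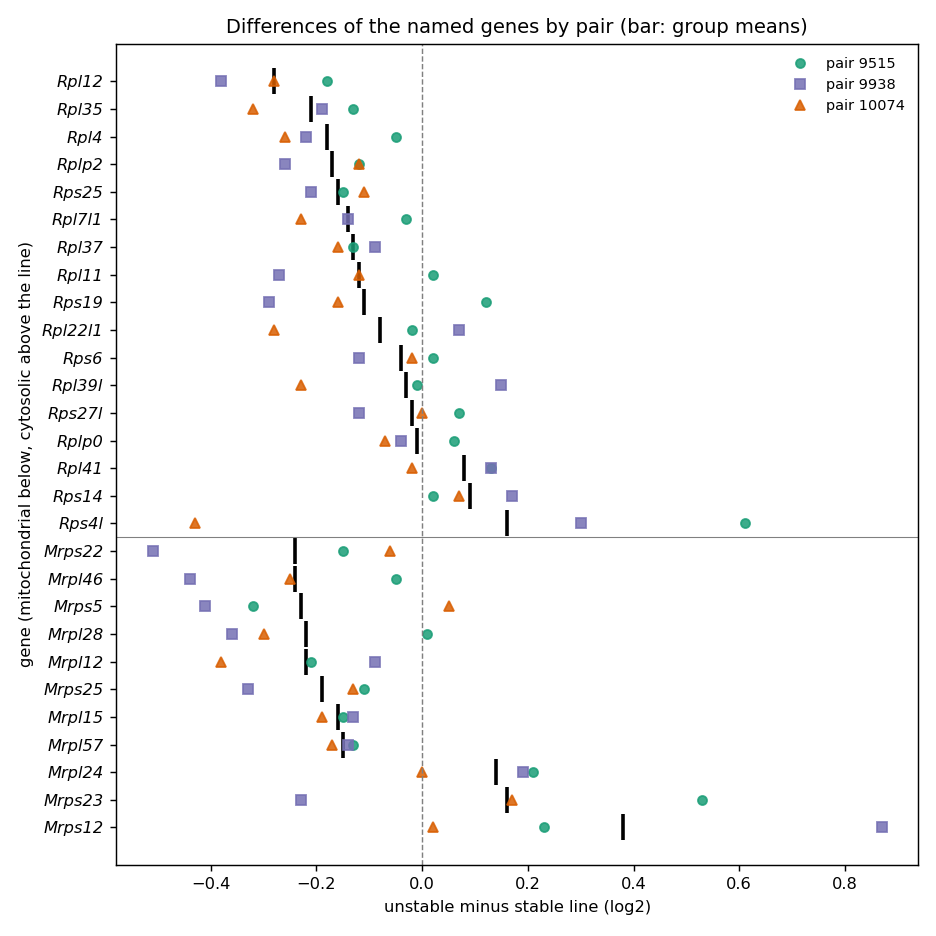
Log2 difference, unstable minus stable line, in each pair (circle 9515, square 9938, triangle 10074) for the Rpl/Rps genes (above the line) and Mrpl/Mrps genes (below it) described by name; black bars are differences of group means. Rpl12, Mrpl15 and Mrpl57 lie below 0 in every pair, while the pairs of Rps4l (0.61, 0.30 and -0.43) and Mrps23 fall on both sides of 0.

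The BubR1 genotypes alone, with 2 lines each, were compared in a model of 4 genotypes. The median BubR1 H/H minus +/+ difference was -0.031 for Rpl/Rps, with 30 of 45 lower, and -0.065 for Mrpl/Mrps, with 55 of 74 lower. These counts stood beside 50.1% of all genes. Leaving out the unstable line of pair 9515 gave an Rpl/Rps median of -0.09 and leaving out its counterpart of pair 9938 gave 0.015, so its direction depended on the line. The Mrpl/Mrps median lay between -0.126 (stable line of pair 9515 left out) and -0.012 (stable line of pair 9938 left out). By limma 0 members passed an adjusted p of 0.05 (0% of all genes), with and without the block, and the smallest adjusted p was 1 without it and 0.518 with it. At an unadjusted p under 0.05 without the block stood 1 Mrpl/Mrps gene, Mrps5, with a difference of -0.36, against 1.67% of all genes lower and 1.48% higher.

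Whether the CDC20 and BubR1 effects differ was tested as the CDC20 difference minus the BubR1 difference. The median was -0.102 for Rpl/Rps, -0.025 for Mrpl/Mrps and -0.032 for all genes. By limma 0 members passed an adjusted p of 0.05 (0% of all genes), with a smallest adjusted p of 1, and with the block of 0.635. Rps4l alone had an unadjusted p under 0.05, with a difference between effects of -0.89 (0.787% of all genes lower, 0.799% higher). The CDC20 effect has 1 line a genotype, so this test borrows the spread of the BubR1 lines.

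Probe sets of a gene did not always share a sign at this size of difference, and in Rps9 they differed by more. Its 3 probe sets had differences of -0.35, 0.00 and 1.43. The last came with 8.86 in the stable line of pair 9938, against 12.80 to 12.95 in the other lines, and did not represent the gene. Rps9 was picked out after its values were seen. Of 19 Rpl/Rps genes with several probe sets at or above the limit, 9 had the same sign in all, and of 28 such Mrpl/Mrps genes, 19. Differences were rounded to 2 decimals for this count, and a value of 0.00 counted as a different sign. Rps15, Mrpl28, Mrpl44 and Mrps9 fell outside the counts only through such a value, so the counts are lower limits. Mrpl1 held such a value too, but it lay just above 0 before rounding, and another of its probe sets had -0.09. Probe sets whose name ends in x_at hold probes that match other sequences too, and they represented 13 of 45 Rpl/Rps genes (28.9%), 2 of 74 Mrpl/Mrps genes (2.7%) and 4.86% of all genes. The Rpl/Rps median was -0.052 for these 13 genes, with 9 lower, and -0.081 for the other 32, with 29 lower. A further 102 probe sets name a cytosolic ribosomal gene together with other genes, and 95 of them passed the limit. Their median was -0.062 and 79 were lower, with pair medians of 0.008, -0.090 and -0.110, close to those of the genes named alone. They were looked at after the main values were seen, and they share sequence with the members.

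Other genes of translation were given by lists, and 0 of their members passed the test in either direction (0% of all genes by limma). Over group means 52.1% of all genes were lower, the share to set beside the counts of these lists. Of 6 ribosomal genes that the symbol rule leaves out, 6 were lower over group means and the median was -0.108. In pairs 9515, 9938 and 10074, 3, 4 and 5 of the 6 were lower, with medians of 0.012, -0.088 and -0.128. In this list Ptcd3, a protein of the mitochondrial small subunit, measured 9.68, 9.61 and 9.82 in unstable and 9.92, 10.00 and 9.82 in stable lines (-0.21, SE 0.10), and Chchd1 had -0.12 (SE 0.11). Of 34 cytosolic initiation genes 24 were lower (median -0.044), and the medians within pairs were 0.038, -0.107 and -0.056. Eif2b1, a subunit of the factor that recharges eIF2 with GTP, measured 7.38, 7.28 and 7.43 against 7.56, 7.85 and 7.58, without overlap (-0.30, SE 0.12), and Eif4b had -0.16 (SE 0.09). Of 12 elongation and termination genes 9 were lower, with a median of -0.057. Dph5, an enzyme of diphthamide synthesis on elongation factor eEF2, had -0.37 (SE 0.23) with 0.17 in the CDC20 pair, and the release factor gene Gspt1 had -0.11 (SE 0.09).

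Transfer RNA synthetases charge transfer RNAs with amino acids. Of 20 cytosolic synthetase genes 18 were lower (median -0.110), against 52.1% of all genes, and the medians within pairs were -0.040, -0.065 and -0.200. Wars, the tryptophan enzyme, measured 9.25, 8.99 and 9.14 in unstable and 9.44, 9.40 and 9.47 in stable lines, without overlap (-0.31, SE 0.10), and the scaffold gene Aimp2 had -0.32 (SE 0.12). The median of 8 mitochondrial synthetase genes was -0.091 and 5 were lower, and the medians within pairs were -0.129, 0.075 and -0.226, with 3 of 8 lower in pair 9938. Rars2 differed by -0.25 (SE 0.13) and Pars2, close to the limit, by -0.21 (SE 0.16). Of 19 mitochondrial translation factors and assembly genes 14 were lower (median -0.094), and the medians within pairs were -0.087, -0.042 and -0.095. Gfm1, the mitochondrial elongation factor that moves the ribosome along, measured 8.61, 8.50 and 8.73 against 8.93, 8.82 and 9.04. All its unstable lines lay below all its stable lines, its pair differences were -0.32, -0.32 and -0.31, and the group difference was -0.32 (SE 0.11). Noa1, a GTPase of mitochondrial ribosome assembly, had -0.26 (SE 0.14).

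Regulators showed less. Of 12 genes in a list of the mTOR pathway, the Myc group and Mdm2, 10 were lower, with a median of -0.028. Over group means that share was near the 84.4% of Rpl/Rps members, against 52.1% of all genes, but the pairs differed. In pairs 9515, 9938 and 10074, 10, 6 and 9 of the 12 were lower, with medians of -0.079, -0.012 and -0.050. The shares of Rpl/Rps members lower were 37.8%, 80% and 93.3% in the same pairs. Myc measured 8.50, 8.31 and 8.30 in unstable and 8.31, 8.99 and 8.60 in stable lines, pair differences of 0.18, -0.68 and -0.29. The group difference of Myc was -0.27 (SE 0.19), about as large as that of Rpl12. Mlst8, an mTOR complex subunit, had -0.15 (SE 0.11). Of 8 factors of mitochondrial biogenesis 4 were lower, with a median of 0.007. Pprc1, a coactivator, had -0.14 (SE 0.08) and Nrf1, the factor of the GCGCA palindrome, -0.16 (SE 0.13). The adjusted p by limma was 0.999 for every gene of these lists named here.

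Proliferation and macrophage transcripts differed between the same lines by more than the ribosomal genes did. All 23 cell division genes tested were lower in the unstable line of every pair, against 19.3% of all genes. Their medians were -0.247, -0.672 and -0.814 for pairs 9515, 9938 and 10074. Of 14 macrophage and leukocyte markers 14 were lower over group means, against 52.1% of all genes, but only 5 of 14 were lower in pair 9938. Their pair medians were -0.180, 0.144 and -1.071. The mean level over the markers was 7.64 to 10.47 in unstable and 7.85 to 10.33 in stable lines. Of 3 mesothelial markers 2 were tested, with pair medians of 0.975, 1.062 and -0.882. Below 4 in every line were 6 of 8 endothelial markers (Pecam1, Cdh5, Emcn, Tie1, Esam and Cldn5), 4 of 8 epithelial markers (Epcam, Cdh1, Krt5 and Cldn4) and 5 of 8 skeletal muscle markers, Myod1 and Myog included. Of the other members tested, Krt18, Krt19 and Acta1 were above 4 in every line, while Kdr, Krt8 and Mylpf did not reach 4 in every line. Krt8 lay at 2.85 to 4.97. Krt18 lay at 5.93 to 7.02 (pair differences 0.35, 0.05 and -0.59) and Krt19 at 5.64 to 7.44 (0.33, -0.50 and 0.02). The skeletal muscle marker Acta1 lay at 8.17 to 9.05 (0.11, 0.05 and 0.74). Smooth muscle markers, 7 in all, had pair medians of 0.143, 0.368 and -0.037. Of these Myh11 was higher in every unstable line without overlap, with pair differences of 0.59, 2.12 and 0.78, and Cnn1 was higher in every pair, by 0.52, 0.47 and 0.25 (both with an adjusted p of 0.999 by limma). Lmod1 was also higher in every pair (0.14 over group means), so 3 of the 7 were, against 16.9% of all genes. Over group means 2 were lower, Acta2 (-0.09) and Smtn (-0.05). Tagln and Des had 0.03 each, with -0.16 and -0.97 in pair 10074. Myh11 and Cnn1 were picked out after their values were seen. The part of dividing cells, macrophages, mesothelial or smooth muscle cells in the ribosomal differences was not tested, and in RNA of whole cultures fewer cells of a type and less RNA per cell cannot be told apart.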

How the data were processed

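Each of the 6 arrays was hybridised with amplified, biotin-labelled complementary DNA of 1 line, per the labels' protocols. The deposited values are log2 probe set levels that the authors made with GCRMA 2.28.0 in R 2.15.3, per the submitters' processing notes. GCRMA corrects background and brings arrays to a common distribution, so a change shared by all transcripts would not show. Depth has no meaning for arrays, and their number limits precision. Of 22626 probe sets, 20380 had 1 gene symbol in the platform annotation, 691 had several and 1555 were not listed, and only the first kind was used for genes. Genes at log2 4 or more on at least 3 arrays were tested (8382 of 12393). Differences were fitted with limma 3.58.1 in R 4.3.3 (two-sided moderated test, p adjusted by Benjamini and Hochberg over all genes tested), which was tested on simulated data. Class medians and counts carry no test.

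Lines of the same number shared their deviations from the group means (r = 0.812, 0.681 and 0.602 over genes for pairs 9515, 9938 and 10074, against -0.673 to 0.153 for other lines of the other group), so the title numbers were used as pairs, and a fit with the pair as a block stands beside the main one. The members and gene lists were chosen with earlier results of these data known. Genes were named by rule: in each class the 5 smallest p, the 3 highest and 3 lowest differences and the 3 whose smallest pair difference was largest among those with 1 sign in all pairs, then stalk genes, Rpl11, Rps6, Rps19 and paralogs, and 2 of each other list by p. Alternatives were other filters, other probe sets, quantile normalization, centring of arrays on their median, an intensity trend with a robust prior, the block, core proteins alone, leaving out the brightest members, and leaving out each line or pair. Promoters and start sites came from RefSeq (GRCm38.p6), and the build of the array annotation is not given in the sources used here.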

Additional observations from a re-analysis of the deposited data

How the results depend on the processing

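No call was made under any setting run, so no call could be lost. The median differences kept their sign under every filter, probe set choice and normalization tried. With a line or pair left out, the Rpl/Rps median ran from -0.107 (pair 9515 left out) to -0.001 (stable line of pair 10074 left out), the Mrpl/Mrps median from -0.109 to -0.024, and the Mrpl/Mrps minus Rpl/Rps median from -0.044 to 0.044, without the stable lines of pairs 10074 and 9938. For BubR1 alone the ranges were -0.09 to 0.015 and -0.126 to -0.012. With the pair as a block the medians were again -0.078 and -0.057. The count of Rpl/Rps members lower in every pair was 21 in place of 13 with arrays centred on the median, and 13 to 36 with a pair left out. For Mrpl/Mrps it was 19, and 21 to 41 with a pair left out, since fewer pairs then had to agree. Leaving out 1 line breaks a pair, so no such count exists for single lines. Of 473 values for 28 named members 445 kept their direction. The second probe set turned Mrps23 to -0.072, Rpl35 to 0.041 and Rps14 to -0.085, the mean of probe sets turned Rpl41 to -0.053 and Rps6 to 0.103, and quantile normalization turned Rplp0 to 0.029 and Rps27l to 0.003. The mean for Rps6 takes in a probe set at 3.19 to 3.84, below the limit of 4 in every line. With a line or pair left out, values ran from -0.018 to 0.805 for Mrps12, -0.029 to 0.351 for Mrps23, -0.185 to 0.097 for Rpl22l1, -0.471 to 0.398 for Rpl39l, -0.007 to 0.219 for Rpl41, -0.069 to 0.066 for Rplp0, -0.224 to 0.013 for Rps19, -0.059 to 0.035 for Rps27l, -0.061 to 0.459 for Rps4l and -0.11 to 0.021 for Rps6. Where construction does not show it, the cause was not tested. Within 100 bases before the start, CCGGAAG was found in 28.2% of Rpl/Rps, 20% of Mrpl/Mrps and 11.3% of all promoters. In the same order the TCTCG palindrome was found there in 10.3%, 1.54% and 0.848%, and AAGATGGCG in 2.56%, 1.54% and 0.658%. The GCGCA palindrome was found in 0%, 3.08% and 1.42%, TATAAA in 2.56%, 1.54% and 3.26%, and CCAAT in 23.1%, 24.6% and 26.3%.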
